A study of Sus scrofa with 6 samples.

Results

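Transcript levels of 4 genes that encode effector enzymes of osteoclasts were examined in primary cultures of porcine bone marrow stromal cells. The genes are ACP5, ATP6V0D2, MMP9 and CTSK. They were chosen by name, and each is represented by the probe set that carries its symbol alone. A probe set is the group of array probes summarised into one value, and each of the 4 genes had 1 such probe set. They are 4 of 11078 genes named on the array, which holds 27558 probe sets in all.

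The cultures were grown from marrow of female American Yorkshire pigs aged 4 months, and RNA was taken at passage 0 and 80% confluence. The mandibular group holds 3 cultures whose marrow was drawn from the mandibular symphysis, at the chin end of the lower jaw, and the tibial group holds 3 from the tibia, the shin bone. The labels name no treatment or genetic change in either group. Marrow of both sites came from 3 pigs in the study, but the sample numbers are not stated to mark pigs, so the groups were compared as unpaired and p-values do not account for a shared animal. Cells were obtained by plating on plastic without sorting, so other adherent marrow cells were not removed by a gate.

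Osteoclasts are large cells with several nuclei that form by fusion of precursors from the monocyte and macrophage lineage and resorb bone. They seal off a patch of bone surface, pump protons into the space beneath to dissolve mineral, and release proteases that digest the exposed matrix. Stromal cells and osteoblasts supply the signals for their formation, chiefly CSF1 and TNFSF11 (RANKL), and the decoy receptor TNFRSF11B (osteoprotegerin) that blocks TNFSF11. The enzymes are not restricted to osteoclasts: macrophages can express ACP5, ATP6V0D2 and MMP9, and fibroblastic cells can express CTSK.

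On 2 arrays, genes of regional identity stood with the other site. ALX1, a homeobox gene of craniofacial mesenchyme, measured 8.08 and 7.44 on mandibular 1 and 3 but 3.86 on mandibular 2, and 3.90 and 3.54 on tibial 1 and 2 but 7.97 on tibial 3. HOXA7, a gene of trunk and limb position, had the opposite arrangement, with 8.40 on mandibular 2 and 5.89 on tibial 3. Whether these 2 arrays were exchanged at labelling was not tested, and an exchange would alter every site mean and difference given here. The labels were kept as deposited, and calls are given with all 6 arrays and again with the 4 arrays left without mandibular 2 and tibial 3. Values are log2 levels with array medians between 5.63 and 5.71, and the number of arrays limits their precision.

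The 4 enzymes did not share one pattern. ACP5, ATP6V0D2 and MMP9 had their highest levels on tibial 1 and tibial 2 and spanned 4.12, 4.36 and 5.62 log2 units over the 6 arrays, while CTSK lay above the upper quartile of every array and spanned 1.10. The median span over all probe sets was 0.53. The mandibular and tibial values overlapped for each of the 4, while they did not for 6.92% of all probe sets. None of the 4 genes passed the test between the site labels with all 6 arrays. In limma, a linear model with moderated variance, 0 of 27558 probe sets (0.0%) passed an adjusted p of 0.05 (Benjamini-Hochberg), with 836 (3.03%) at an unadjusted p under 0.05. An unmoderated fit also gave 0 calls, with 848 at an unadjusted p under 0.05.

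**Figure D1:**
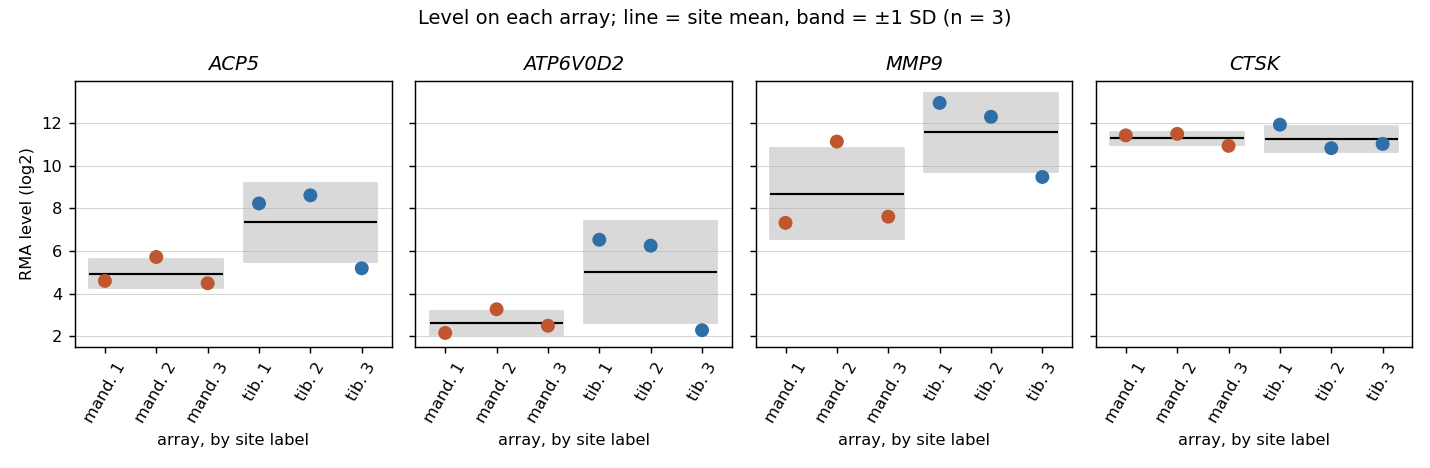
Log2 level (vertical axis) of each enzyme gene on each of the 6 arrays (horizontal axis, by site label), with points for arrays, lines for the site means and bands for ±1 SD (n = 3). ACP5 and ATP6V0D2 are highest on tibial 1 and tibial 2, MMP9 is also high on mandibular 2 at 11.13, and CTSK lies between 10.82 and 11.92 on all arrays.

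ATP6V0D2 encodes the d2 subunit of the membrane part of the vacuolar proton pump, which acidifies the resorption space, and it is also needed for osteoclast precursors to fuse. It measured 2.16, 3.27 and 2.50 on mandibular 1, 2 and 3, and 6.53, 6.25 and 2.29 on tibial 1, 2 and 3. Tibial 1 and 2 thus lay 2.99 or more above the next array, and tibial 3 lay among the mandibular values, so the groups overlapped. The 4 lower values were below the lower quartiles of the arrays, which lay between 3.86 and 3.94, and cannot be separated from background. The site means were 2.64 ± 0.57 (SD, n = 3) and 5.02 ± 2.37 (SD, n = 3). They differed by -2.38 (SE 1.09, 95% interval -4.99 to 0.23), a size that background limits on the 4 low arrays and that is therefore not given as a fold. The difference did not pass (limma unadjusted p = 0.0681, limma adjusted p = 0.9995). The two-sided exact permutation p was 0.3, where 0.1 is the smallest that 3 against 3 can give.

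ACP5 encodes tartrate-resistant acid phosphatase, the enzyme whose activity is stained to find osteoclasts. Its levels were 4.60, 5.72 and 4.49 on mandibular 1, 2 and 3, and 8.23, 8.61 and 5.19 on tibial 1, 2 and 3. Again tibial 1 and 2 stood apart, by 2.51 or more, and tibial 3 lay below mandibular 2. The means of 4.94 ± 0.68 (SD, n = 3) and 7.34 ± 1.87 (SD, n = 3) differed by -2.41 (SE 0.90, 95% interval -4.55 to -0.27), or 5.31-fold. Levels on mandibular 1 and 3 lay above only 34.5% and 33.6% of probe sets, so background may limit the fold. The interval is not adjusted for the number of probe sets. The difference did not pass (limma unadjusted p = 0.0327, limma adjusted p = 0.9995, exact permutation p = 0.2, two-sided).

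MMP9 encodes gelatinase B, a secreted metalloproteinase that digests denatured collagen and is made by osteoclasts, macrophages and neutrophils. It measured 7.32, 11.13 and 7.61 on mandibular 1, 2 and 3, and 12.94, 12.29 and 9.47 on tibial 1, 2 and 3. Unlike those of ACP5 and ATP6V0D2, its values had no single large gap: tibial 3 lay 1.85 above mandibular 3, mandibular 2 lay 1.66 above tibial 3, and tibial 2 lay 1.15 above mandibular 2. Only 24 probe sets (0.0871%) had a span over the 6 arrays as wide as that of MMP9, counting itself. The means were 8.69 ± 2.12 (SD, n = 3) and 11.56 ± 1.84 (SD, n = 3). Their difference of -2.88 (SE 1.26, 95% interval -5.89 to 0.14) or 7.34-fold did not pass. The limma p was 0.0585 unadjusted and 0.9995 adjusted over all probe sets, and the exact permutation p was 0.2, two-sided.

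CTSK encodes cathepsin K, the cysteine protease that cleaves type I collagen in the acid resorption space. It measured 11.42, 11.49 and 10.93 on mandibular 1, 2 and 3, and 11.92, 10.82 and 11.02 on tibial 1, 2 and 3. Its lowest and highest levels were both tibial, and tibial 2, which was high for the other enzymes, had the lowest. The means were 11.28 ± 0.31 (SD, n = 3) and 11.25 ± 0.59 (SD, n = 3). The difference of 0.02 (SE 0.31) had a 95% interval from -0.72 to 0.77 (limma adjusted p = 0.9995, exact permutation p = 1.0, two-sided). The sign of a difference this small turned when single arrays were left out, over a range from -0.19 to 0.36.

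Leaving out mandibular 2 and tibial 3 changed the call for ACP5, ATP6V0D2 and MMP9 and not for CTSK. Between mandibular 1 and 3 and tibial 1 and 2, ATP6V0D2 differed by -4.06 (SE 0.21), ACP5 by -3.87 (SE 0.20) and MMP9 by -5.15 (SE 0.27), each with a limma adjusted p of 0.00598. For ACP5 and MMP9 these correspond to 14.66-fold and 35.43-fold higher tibial levels, and for ATP6V0D2 no fold is given because its levels on mandibular 1 and 3 cannot be separated from background. Background may also limit the fold of ACP5, whose levels on mandibular 1 and 3 lay below the array medians. CTSK differed by -0.20 (SE 0.40, 95% interval -1.18 to 0.79, limma adjusted p = 0.965). In that fit 195 of 27558 probe sets (0.708%) passed, 151 of them (0.548%) lower in mandibular cultures. It rests on 2 arrays against 2 and was chosen with results of these data known. With only tibial 3 left out, ACP5, ATP6V0D2 and MMP9 differed by -3.48, -3.75 and -3.92, with limma adjusted p of 0.0857, 0.0575 and 0.401. Without mandibular 2 alone, MMP9 differed by -4.10 (limma adjusted p = 0.9997).

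**Figure D2:**
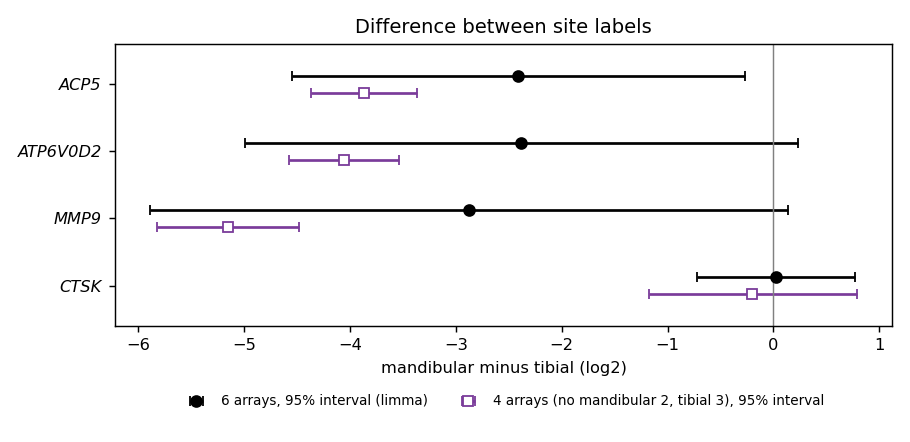
Mandibular minus tibial difference (horizontal axis, log2) of each enzyme gene with its 95% interval in limma, for all 6 arrays (filled) and for the 4 arrays left without mandibular 2 and tibial 3 (open). With 6 arrays only the interval of ACP5, unadjusted, leaves out 0, and with 4 arrays those of ACP5, ATP6V0D2 and MMP9 do.

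Markers of macrophages and monocytes also had their highest mean levels on tibial 1 and tibial 2. Of 23 measured markers, 22 had lower mandibular means, with a median difference of -2.18, against 49.0% of all probe sets lower and a median of 0.004. Their mean level ranged from 4.76 to 5.95 in mandibular and from 5.26 to 8.19 in tibial cultures, with 8.19 on tibial 1 and 7.54 on tibial 2. With 6 arrays none was called, and for 2 every mandibular value lay below every tibial one, as for 3.57% of all probe sets. PTPRC, the leukocyte antigen CD45, differed by -2.18 (SE 0.96), CD14 by -0.77 (SE 0.29), ITGAM by -0.33 (SE 0.12) and the mannose receptor gene MRC1 by -2.25 (SE 0.86). In the 4-array fit the median was -3.75. There 16 of the 23 were called, all lower in mandibular cultures, against 0.548% of all probe sets called lower. Among the 16, C1QA, C1QB, C1QC, TLR4 and MPEG1 had the same limma adjusted p as the 3 enzymes, 0.00598, and PTPRC had 0.0112. The deposited log2 values have no zero, so no marker can be called absent. The part of these cells in the levels of the enzymes was not tested, and in bulk cultures more cells of a type and more RNA per cell cannot be told apart.

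Genes listed as markers of osteoclasts among myeloid cells were divided, and whether they are restricted to osteoclasts in these cultures was not tested. Of 10 written down, 9 were measured, 7 had lower mandibular means, and their median difference was -0.06. The fusion receptor gene DCSTAMP measured 8.65 and 6.84 on tibial 1 and 2 and between 4.27 and 4.70 on the other 4 arrays, a difference of -2.01 (SE 0.99). The calcitonin receptor gene CALCR, by contrast, lay between 2.68 and 2.87 on all arrays, below their lower quartiles. TNFRSF11A, which encodes RANK, the receptor of TNFSF11, lay between 3.75 and 4.68 and differed by -0.06 (SE 0.24). Its 3.75 on tibial 3 lay below that array's lower quartile and its 3.98 on mandibular 1 just above, so background may limit the difference. NFATC1, the transcription factor that drives osteoclast differentiation, differed by 0.33 (SE 0.15), and SIGLEC15, a fusion and signalling receptor gene, by -0.05 (SE 0.13). None of the 9 was called with 6 arrays or with 4, where DCSTAMP differed by -3.20 (limma adjusted p = 0.11). The receptor gene OSCAR measured 7.30 and 6.52 and the fusion gene OCSTAMP 6.50 and 5.88 on tibial 1 and 2, their highest levels. NFATC1 and the integrin gene ITGB3, 2 of the 9, had higher mandibular means. The list median was -0.33 in the 4-array fit. Levels as low as those of CALCR cannot be separated from background, so CALCR cannot be compared with the enzymes.

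Signals to osteoclasts came out on both sides of 0. Of 12 measured genes, 8 had lower mandibular means, the median was -0.27, and none was called. CSF1, the growth factor of macrophages and osteoclast precursors, lay between 10.73 and 11.49 and differed by 0.07 (SE 0.26). TNFSF11 measured 3.86, 4.06 and 4.25 in mandibular and 5.26, 4.36 and 3.90 in tibial cultures, a difference of -0.45 (SE 0.34). Its decoy receptor TNFRSF11B differed by 0.41 (SE 0.27). The lowest levels of the pair, 3.86 for TNFSF11 and 3.84 for TNFRSF11B, were below the lower quartiles of their arrays. SEMA3A, a guidance factor that restrains osteoclast formation, differed by 0.86 (SE 0.39), and the chemokine gene CXCL12 differed by -0.40 (SE 0.21). Of the 12 genes only SEMA3A had groups without overlap, against 6.92% of all probe sets in either direction. The median was -0.76 in the 4-array fit, again with no calls.

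Among receptors and adaptors, all 19 genes were measured, 17 had lower mandibular means, and the median was -0.30. The receptor of CSF1, CSF1R, measured 5.73, 6.67 and 5.64 in mandibular and 8.86, 8.85 and 6.0 in tibial cultures, and differed by -1.89 (SE 0.79). The immunoreceptor adaptors TYROBP and FCER1G, which give the costimulatory signal in osteoclast precursors, differed by -2.37 (SE 1.05) and -3.11 (SE 1.35). Receptors that pair with these adaptors had smaller values, with TREM2 at -1.17 (SE 0.46) and OSCAR at -0.62 (SE 0.28). ITGB3, the beta chain of the integrin with which osteoclasts attach to bone, differed by 0.39 (SE 0.23). None was called with 6 arrays. In the 4-array fit the median was -0.96 and 3 were called, CSF1R, TYROBP and FCER1G, with limma adjusted p of 0.00598, 0.0233 and 0.0148. All 3 are also on the macrophage list and are counted among its called genes. The share of all probe sets called lower in that fit was 0.548%.

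Among transcription factors of the lineage, SPI1 and PRDM1 had the largest differences. Of 12 measured, 6 had lower mandibular means, with a median of -0.01 and no calls with 6 arrays. SPI1 (PU.1), the factor of myeloid commitment, differed by -1.96 (SE 0.69). PRDM1, a repressor that removes brakes on osteoclast formation, measured 7.88 and 7.34 on tibial 1 and 2 and from 4.40 to 5.33 elsewhere, and differed by -1.93 (SE 0.74). MITF, a regulator of ACP5 and CTSK in osteoclasts, differed by -0.33 (SE 0.35). SPI1 at -3.01 and PRDM1 at -3.09 were called in the 4-array fit, with limma adjusted p of 0.0379 and 0.0121, and the list median was -0.12. SPI1 is also counted among the called genes of the macrophage list. The share of all probe sets called lower in that fit was 0.548%.

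Genes of cell fusion and acid secretion held a few wide spans among narrow ones. In the fusion list 4 of 8 measured genes had lower mandibular means, with a median of -0.11 and no calls with 6 arrays. SIRPA, the inhibitory receptor for CD47, differed by -1.14 (SE 0.49), CD36, a scavenger receptor gene, by -3.22 (SE 1.55), CD44, a hyaluronan receptor gene, by 0.52 (SE 0.44), and OCSTAMP, a partner of DCSTAMP in fusion, by -0.25 (SE 0.24). In the acid secretion list 7 of 8 were lower, with a median of -0.21 and no calls with 6 arrays. TCIRG1, the osteoclast pump's a3 subunit gene, differed by -0.24 (SE 0.23), the chloride exchanger gene CLCN7 by -0.25 (SE 0.22) and its partner OSTM1 by -0.19 (SE 0.28). SNX10, a sorting nexin gene of endosomes needed for resorption, measured 6.80 and 5.96 on tibial 1 and 2, 5.32 on mandibular 2 and from 3.47 to 4.03 elsewhere. The vesicle fusion gene SYT7 differed by -0.23 (SE 0.12). In the 4-array fit 1 gene of each list was called, SIRPA at -1.84 (limma adjusted p = 0.0208) and SNX10 at -2.50 (limma adjusted p = 0.0444). The share of all probe sets called lower in that fit was 0.548%.

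**Figure D3:**
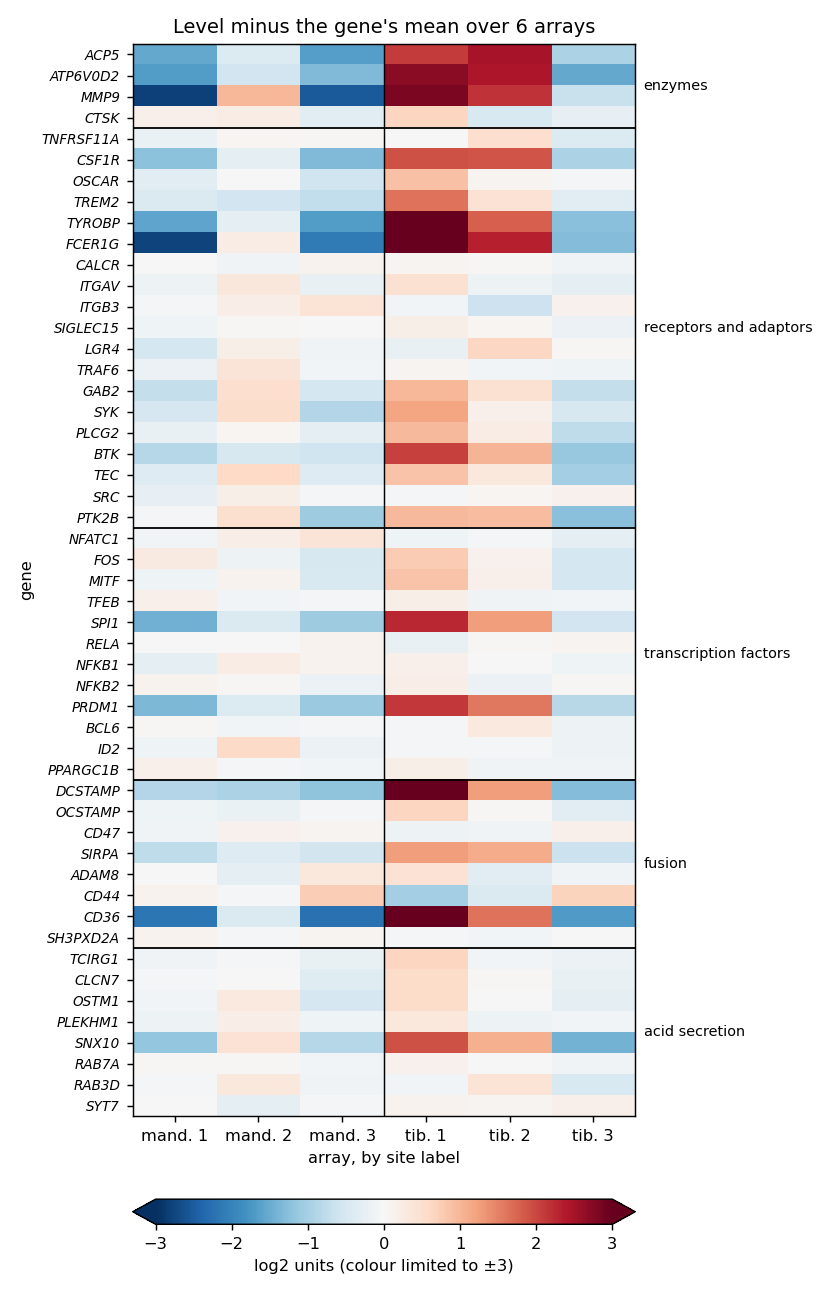
Log2 level of each gene minus its mean over the 6 arrays (colour, limited to 3 units either way) for the enzymes and for genes of osteoclast receptors, transcription factors, fusion and acid secretion (rows), by array (columns). ACP5, ATP6V0D2, MMP9, CSF1R, TYROBP, FCER1G, SPI1, PRDM1, DCSTAMP and CD36 are highest on tibial 1 and 2, while CTSK, CALCR and NFATC1 span 1.10, 0.19 and 0.66 log2 units.

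Set against genes listed with them by enzyme name or shared complex, ACP5, ATP6V0D2 and MMP9 had larger differences than any measured one. This is given as a description, and the lists are not families by sequence. Some listed genes, such as MMP3 (2.51 to 3.15) and ATP6V0A4 (2.83 to 3.16), lay below the lower quartiles on all arrays. Levels this low cannot be separated from background, so the small differences of such genes cannot be compared with the enzymes. The 19 other genes on the proton pump list, which leaves out TCIRG1 given above, differed by -0.45 to 0.18, with a median of -0.09. ATP6V0D1, the d1 subunit that most cell types use in the place of d2, differed by -0.03 (SE 0.14) and spanned 0.36. The 4 other acid phosphatases differed by -0.32 to 0.59, with lysosomal ACP2 at -0.32 (SE 0.16) and mitochondrial ACP6 at 0.59 (SE 0.19). The 13 other metalloproteinases differed by -0.98 to 0.78. Among them the gelatinase gene MMP2, the stromal counterpart of MMP9, differed by -0.15 (SE 0.34), and its membrane activator MMP14 by -0.04 (SE 0.27). The collagenase genes MMP13 and MMP1 differed by -0.98 (SE 0.63) and 0.78 (SE 0.31). None of these listed genes was called with 6 arrays or with 4, although the metalloproteinase median turned from -0.10 to 0.18 in the 4-array fit.

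In the cathepsin list the place of the enzyme was the reverse. CTSK lay among the listed genes with small differences, and CTSS, a cysteine protease of antigen-presenting cells, had the largest at -2.70 (SE 1.36). CTSS measured 5.16, 6.96 and 4.50 in mandibular and 10.54, 8.99 and 5.19 in tibial cultures, with tibial 1 and 2 highest and the groups overlapping. CTSZ and CTSL differed by -0.89 (SE 0.58) and -0.89 (SE 0.80), and CTSV by -0.16 (SE 0.13). The 10 other measured genes of the list had a median of -0.13 and no calls with 6 arrays. In the 4-array fit the median was -0.39 and CTSS at -4.93 was called (limma adjusted p = 0.0282). The share of all probe sets called lower in that fit was 0.548%. In the Sscrofa11.1 assembly CTSS is the next protein-coding gene to CTSK, so neighbouring genes of one family had unlike profiles. Of the neighbours of other enzymes, ELOF1, next to ACP5, spanned 0.18, and ZNF335 and SLC12A5, on either side of MMP9, spanned 0.32 and 0.53. These neighbours were chosen after other values were seen.

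**Figure D4:**
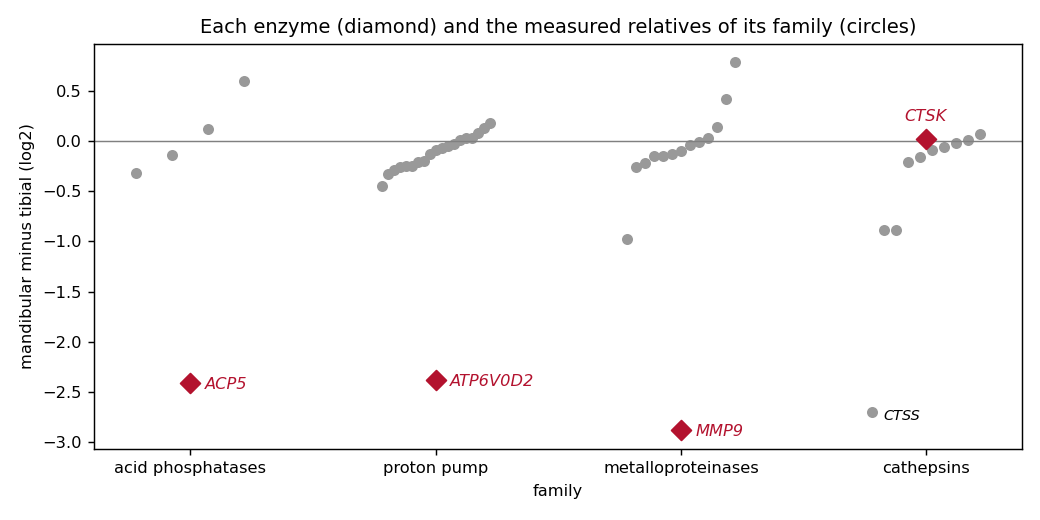
Mandibular minus tibial difference (vertical axis, log2, 6 arrays) of each enzyme gene (diamond) and of the measured genes listed with it by name or complex (circles, ordered by value). ACP5, ATP6V0D2 and MMP9 lie below all genes listed with them, some of which were at background levels on all arrays. CTSK at 0.02 lies among those of its list, of which CTSS is lowest at -2.70.

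The genes most like each enzyme over the 6 arrays were taken from 1636 other genes with a span of at least 1 log2 unit, by Pearson's r. Arrays can share a pig, and the highest of so many values of r are high by selection, so they are given as a description only. For ACP5 the nearest were CSF1R (r = 0.996), ADAP2, TLR4, TAGAP and JAML, down to 0.986. For ATP6V0D2 they were SIRPA (r = 0.997), CXHXorf21, ARRB1, FRMD4B and SLA-DMB, down to 0.994. For MMP9 they were the complement genes C1QC (r = 0.992) and C1QB, the pore-forming MPEG1 and the chemokine genes CCL8 and CCL4, down to 0.983. C1QC measured 8.47 on mandibular 2 and 6.99 on tibial 3, against 5.46 and 5.47 on mandibular 1 and 3, the same order as MMP9 for these arrays. For CTSK they were PRELP (r = 0.977), a proteoglycan gene of connective tissue, CNTNAP1, ENPP5, TNFRSF18 and SLC9A3R2, down to 0.964. No gene was among the 5 nearest of more than 1 enzyme.

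Markers of other cell types had list medians nearer 0 than the macrophage list, with single genes apart. Some of these markers, such as S100A8 (3.01 to 3.76), CD3G (2.59 to 3.18) and HBB (2.10 to 2.75), lay below the lower quartiles on all arrays. Such levels cannot be separated from background, which may bring a list median near 0. Of 6 granulocyte markers 6 had lower mandibular means, with a median of -0.37. S100A12 measured 7.41 and 5.34 on tibial 1 and 2 and from 3.34 to 3.74 elsewhere. LCN2, an iron-binding protein gene of neutrophils and other cells, measured 9.32 and 10.30 on tibial 1 and 2 and from 7.51 to 8.78 elsewhere, and S100A8 differed by -0.37 (SE 0.16). MPO, the peroxidase of neutrophil granules, lay between 4.09 and 5.23. Lymphocyte markers had a median of -0.04 over 13 genes, with NKG7 apart at -2.54 (SE 1.00) and CD4 at -0.78 (SE 0.39). Endothelial markers had a median of -0.38 over 6 genes and erythroid and megakaryocyte markers 0.05 over 6 genes. For the endothelial PECAM1 at -0.55 (SE 0.16) and ESAM at -0.54 (SE 0.18), every mandibular value lay below every tibial one. KDR at 0.45 (SE 0.19) was the reverse, with levels below the lower quartiles. The groups did not overlap for 6.92% of all probe sets. The 14 stromal markers had a median of -0.07, and THY1, a surface marker of stromal cells, lay between 10.50 and 10.70 on all arrays. VCAM1, an adhesion molecule gene of stromal and endothelial cells, measured 9.52 and 7.55 on tibial 1 and 2 and from 3.68 to 5.57 elsewhere, a difference of -2.55 (SE 1.31). None of these genes was called with 6 arrays. In the 4-array fit only NKG7 was, at -4.11 (limma adjusted p = 0.0324), against 0.548% of all probe sets called lower. VCAM1 at -4.56 had a limma adjusted p of 0.0587 in that fit. Cell cycle genes had the opposite sign, higher in mandibular cultures in 11 of 11, with a median of 1.01 and list means of 6.05 and 6.63 on tibial 1 and 2 against 7.57 to 8.50 on the other arrays. None was called in either fit. The part of proliferation in the levels of the enzymes was not tested.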

How the data were processed

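RNA of 6 cultures was measured on an Affymetrix porcine array. The authors deposited log2 levels, and per the submitters' processing notes they were made by RMA with Affymetrix Expression Console, with Transcriptome Analysis Console 3.0 also named. The genome build is not given in the sources used. RMA makes array distributions equal, so a shift shared by all genes would have been removed. GEO's platform annotation named 13157 of 27558 probe sets with 1 symbol and 523 with several, left 13878 unnamed, and 7 symbols were updated by Entrez number. The probe set with the highest mean stood for each gene. All probe sets were fitted with limma 3.58.1 in R 4.3.3 (lmFit, eBayes), two-sided, mandibular minus tibial. The code was tested on simulated data in which the spread of each probe set was capped at the median spread. That test does not show whether changes in genes as variable as ACP5, ATP6V0D2 and MMP9 can be found. The exact permutation tests compared 3 with 3 values.

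The members, lists and the 4-array comparison were chosen with earlier results of these data known. Genes named are the members, up to 4 of each list with the smallest p, a fixed set of lineage genes, and the 5 nearest by r. SIGLEC15 and C1QA were named outside this rule, and other genes outside it are said to be chosen later. No sequences are shown. Alternatives were a replicate block, array centring, array weights, trended and unmoderated variance, a filter on low levels, and leaving out arrays.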

Additional observations from a re-analysis of the deposited data

How the results depend on the processing

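With single arrays left out, the count of called probe sets ranged from 0 to 2 (1 without tibial 1, 2 without tibial 3), and without both mandibular 2 and tibial 3 it was 195. Over single omissions ACP5 ranged from -3.48 to -1.78, ATP6V0D2 from -3.75 to -1.63, MMP9 from -4.10 to -2.19 and CTSK from -0.19 to 0.36. CTSK was below 0 without mandibular 1 (-0.05), mandibular 2 (-0.08), tibial 2 (-0.19) or tibial 3 (-0.09). Without both mandibular 2 and tibial 3, ACP5 at -3.87, ATP6V0D2 at -4.06 and MMP9 at -5.15 passed, and CTSK was -0.20; the cause was not tested. Centring, array weights, trended or unmoderated variance and the filter on low levels gave 0 calls and turned no sign of the 4 genes. The filter removed ATP6V0D2, which then has no value. With 1 probe set per enzyme, averaging probe sets was not run as an alternative. With the replicate number as a block, 0 probe sets were called, 1511 had an unadjusted p below 0.05, and ACP5, ATP6V0D2, MMP9 and CTSK kept differences of -2.41, -2.38, -2.88 and 0.02. Same-numbered arrays had correlations of deviations of -0.033, 0.212 and 0.473, and not every array correlated best with its own number, so the numbers were not taken as pairs. Low levels, as of ATP6V0D2 on 4 arrays, cannot be separated from background.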

Other observations

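The matrix that these enzymes digest, and the inhibitors that restrain them, were compared in the same way. Bone matrix genes had a median of -0.09 over 12 measured genes, with 9 lower in mandibular cultures and none called. COL1A2 and SPARC, abundant matrix genes of stromal cells, differed by -0.13 (SE 0.13) and -0.16 (SE 0.13), and COL1A1, the main substrate of CTSK, lay between 13.24 and 13.49. BGLAP, which encodes osteocalcin, differed by 0.76 (SE 0.50) and the proteoglycan gene DCN by -0.71 (SE 0.46). Among 8 inhibitors the median was 0.12. TIMP1, which binds the proform of MMP9, differed by -0.01 (SE 0.32), and CST3, a cystatin that blocks cysteine cathepsins, by -0.24 (SE 0.29). A2M, a broad protease trap, differed by 0.84 (SE 0.48). None of these genes was called in limma with 6 arrays. In the 4-array fit the inhibitor gene TIMP3, named after its values were seen, was called at 1.48 (SE 0.18, limma adjusted p = 0.0379), higher in mandibular cultures. It measured 11.58, 10.80 and 11.54 in mandibular and 10.19, 9.97 and 12.38 in tibial cultures, the lowest being tibial 1 and 2. Of all probe sets, 0.708% were called in either direction in the 4-array fit.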
